A study of Mus musculus with 6 samples.

Results

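The 32 genes described here encode the receptors and transporters of the excitatory transmitter glutamate. They were picked by gene symbol from the 52636 genes of the deposited table, and not by a cut on their values. Earlier results of these data were known when they were chosen. The set comprises 24 receptor genes (4 classes of ion channel subunits and the metabotropic receptors) and 8 transporter genes (plasma membrane and vesicular). RNA was sequenced from the vestibular epithelium of young adult male 129S1/SvImJ mice, an inbred strain. The 3 Control mice drank plain water and the 3 IDPN mice drank water with 30 mM 3,3'-iminodipropionitrile, a nitrile toxic to the vestibular system, for 8 weeks. Each library held the pooled 2 utricles and 6 cristae of 1 animal, so the replicates were separate animals, and all 6 libraries carried 1 batch label. In the animal codes of the labels, the 3 Control animals shared a stem that no IDPN animal had. IDPN 2 and IDPN 3 shared a different stem, and IDPN 1 had one of its own. What the stems stand for is not given, and it cannot be told apart from the treatment.

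In the utricle and the crista, hair cells (HCs) turn head movement into release of glutamate at ribbon synapses. The vesicles are loaded by the transporter VGLUT3 (Slc17a8), and the glutamate acts on receptors of the afferent nerve terminals, which form calyces around type I HCs and boutons on type II HCs. The cell bodies of those afferents, and hence most of their messenger RNA, lie in the vestibular ganglion, outside the dissected tissue. Supporting cells surround the HCs and take up the released glutamate through GLAST (Slc1a3). AMPA receptors carry most of the fast current at such synapses, kainate and NMDA receptors add slower currents, and metabotropic receptors act through G proteins.

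The libraries held between 40474847 and 43566332 estimated counts. HC markers were high in every library (the sum over 14 markers was 42665 to 45850 normalized counts in Control and 27252 to 28904 in IDPN), as were supporting cell markers. Of the 14 neuronal markers, Nefl, Nefm, Isl1, Ntrk2 and Snap25 were abundant (Control means of 668 to 3085 normalized counts), whereas Tubb3, Stmn2, Nefh, Gap43 and Scn1a had group means of at most 10.9. Normalized counts are counts divided by the DESeq2 size factor of the library, which ran from 0.825 to 1.21. When libraries were scaled by their totals instead, the median log2-Fold_Change over 16418 genes rose by 0.25, and the calls over all genes turned from 604 lower and 410 higher to 214 lower (1.28%) and 609 higher (3.64%). On that scale 4 of the glutamate genes were called lower. In bulk tissue, fewer cells of a type and less RNA per cell cannot be told apart, and this holds for every difference given below.

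In the IDPN epithelium, 5 of the glutamate genes were downregulated: Gria4, Grin3a, Grik1, Slc17a8 and Grm7, which belong to the AMPA, NMDA and kainate receptors, the vesicular transporters and the metabotropic receptors. Their estimated levels were between 2.24-fold (Slc17a8) and 6.40-fold (Grin3a) lower than in Control. Other genes of the same classes, among them Gria3 (the receptor gene with the highest level per kb of exon), did not pass the test. None of the tested plasma membrane transporters, Slc1a2 among them, passed it either. A gene was called when the DESeq2 Wald test gave an adjusted p-value (Padj) under 0.05 and the fold change was over 1.5. Of the 22 members with a Padj, 5 (22.7%) were called lower, against 3.42% called lower among the 17650 genes tested. None was called higher by DESeq2, by edgeR or by limma-voom, against 2.32%, 1.02% and 0.938% of all tested genes called higher in that order. With 22 members and shares this small, a count of 0 does not set the members apart. At an unadjusted p under 0.05, 0 members were higher in any of the 3 tools, and the share of all genes at that threshold was not counted.

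Among the 17 members tested but not called, 11 had estimates below 0 and 6 above 0. The median log2-Fold_Change of the 22 tested members was -0.55, beside 0.02 over all tested genes. The groups did not overlap, with every IDPN library below every Control library, for 8 of the 22 members (Gria4, Grin3a, Slc17a8, Grik1, Grm7, Grik3, Slc1a6 and Slc1a3), against 11.4% of all tested genes. Of the 10 members with no Padj, Grin2a, Grm5, Grm6, Grm8 and Slc17a7 had 0 counts in every library. A count of 0 allows up to 3 counts per library, or 2.48 to 3.64 normalized counts. Gria1 and Slc1a7 had at most 1 count in any library, and Grik2, Grik4 and Grin2b were above 0 but too low for DESeq2 to assign a Padj. In all, 14 of the 32 members reached 10 counts in all 6 libraries.

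**Figure D1:**
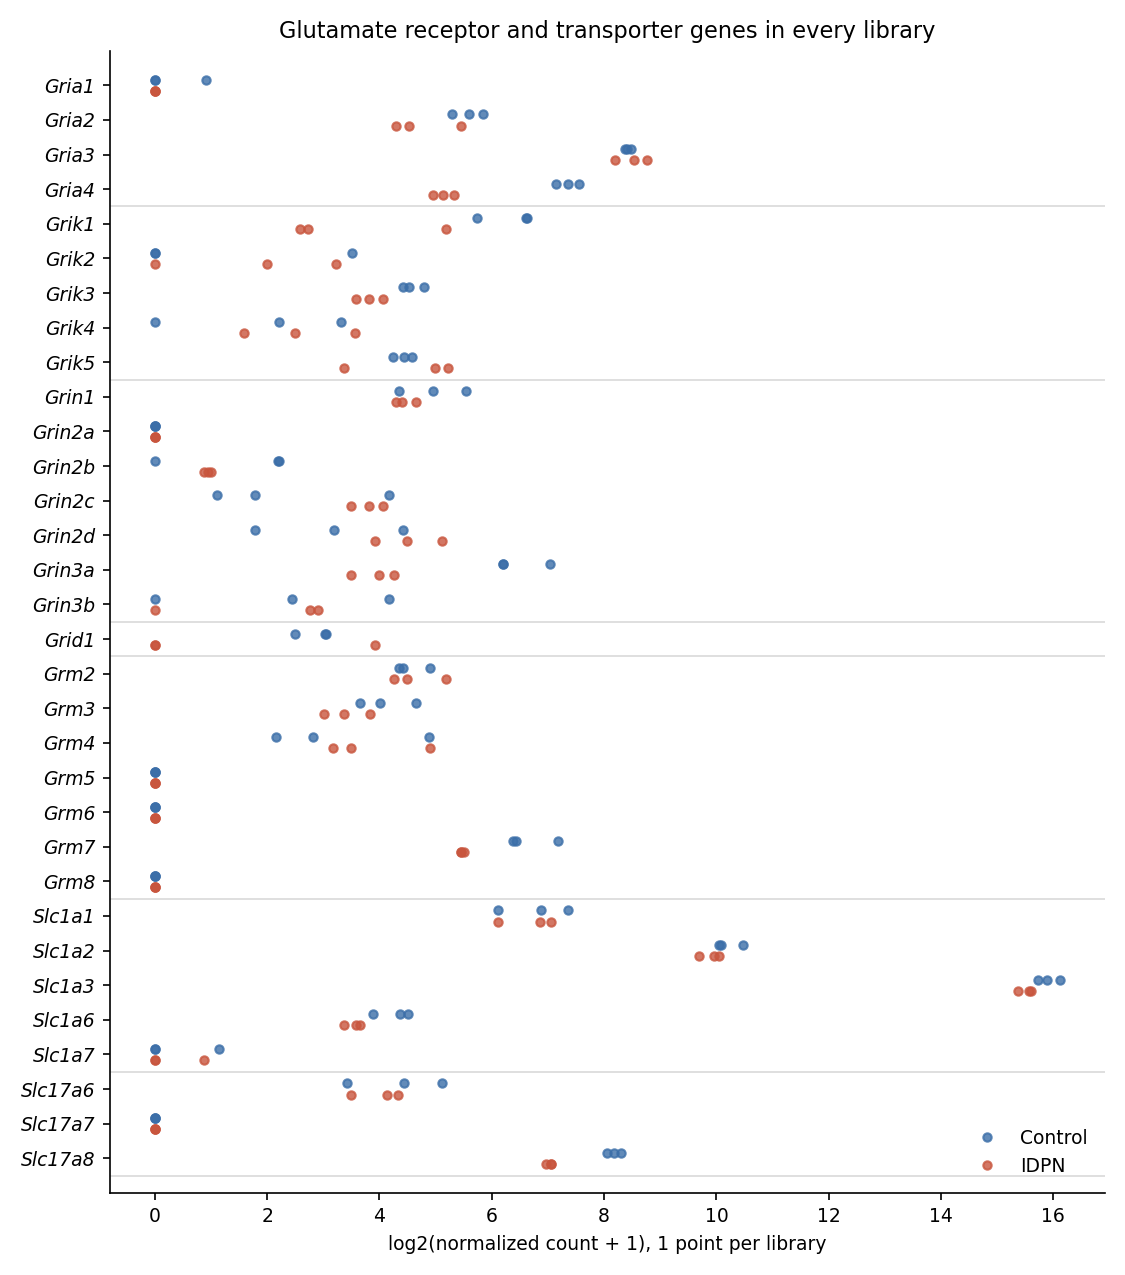
Level of each of the 32 genes in each library as log2(normalized count + 1), with 1 point per library (blue Control, red IDPN) and grey lines between gene classes. Slc1a3 stands far to the right of all others, 5 genes lie at 0 in all 6 libraries, and for Gria4, Grin3a, Grik1, Grm7 and Slc17a8 the red points lie left of the blue ones.

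The stretches of genome around the starts of 3 downregulated members are shown, namely those called members that had an entry in the promoter set used. They are RefSeq promoter windows on GRCm38.p6, from 250 bases before to 50 bases after the annotated start, read 5′ to 3′ on the gene's own strand. Gria4 lies on the minus strand (chr9:4796185-4796484), Slc17a8 on the minus strand (chr10:89621200-89621499) and Grm7 on the plus strand (chr6:110645262-110645561). Capitals mark matches to 4 short motifs searched on both strands: the E-box CANNTG, the cyclic AMP response element TGACGTCA, the TATA box TATAAA and the GC box GGGCGG.
Gria4: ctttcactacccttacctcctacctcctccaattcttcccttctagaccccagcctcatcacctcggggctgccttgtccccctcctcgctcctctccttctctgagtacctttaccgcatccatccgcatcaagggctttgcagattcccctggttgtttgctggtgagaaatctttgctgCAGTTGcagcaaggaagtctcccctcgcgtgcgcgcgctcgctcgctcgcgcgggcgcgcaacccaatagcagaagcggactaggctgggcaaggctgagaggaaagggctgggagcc
Slc17a8: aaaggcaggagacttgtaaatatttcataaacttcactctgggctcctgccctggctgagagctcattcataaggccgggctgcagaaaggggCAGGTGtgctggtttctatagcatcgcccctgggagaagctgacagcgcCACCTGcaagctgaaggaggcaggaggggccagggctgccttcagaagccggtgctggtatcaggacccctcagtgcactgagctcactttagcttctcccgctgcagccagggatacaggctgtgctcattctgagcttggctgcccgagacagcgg
Grm7: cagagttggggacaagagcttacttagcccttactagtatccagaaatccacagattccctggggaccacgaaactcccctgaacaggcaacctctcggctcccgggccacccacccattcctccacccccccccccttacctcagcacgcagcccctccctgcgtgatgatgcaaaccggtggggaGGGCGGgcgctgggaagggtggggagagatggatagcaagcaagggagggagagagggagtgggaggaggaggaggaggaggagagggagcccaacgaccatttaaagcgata
The Gria4 window held 1 E-box, CAGTTG, which began 68 bases before the start, and none of the other 3 motifs. For Slc17a8 and Grm7 the set holds 2 windows each, of which the one farther upstream is printed. The printed Slc17a8 window held 2 E-boxes, CAGGTG and CACCTG, beginning 157 and 108 bases before the start. The printed Grm7 window held no E-box and 1 GC box, 63 bases before the start. The other Slc17a8 window (chr10:89599766-89600065) held 1 E-box, CATCTG, 42 bases before its start, and the other Grm7 window (chr6:110645348-110645647) the same GC box, 149 bases before its start. Among all 32851 windows in the RefSeq set, 72.3% held an E-box, 35.7% a GC box, 13.6% a TATA box and 1.79% the response element. No motif was found in all 3 windows. In all, 23 of the 32 members had 1 or more windows in the set (28 in all), with Grin3a and Grik1 not among them. Of those 28 windows, 67.9% held an E-box, 57.1% a GC box, 7.14% a TATA box and 0% the response element. Whether any motif bears on the lower levels was not tested.

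Of the vesicular transporters, which fill synaptic vesicles with glutamate, Slc17a8 was the one with appreciable signal. Slc17a8 (ENSMUSG00000019935.16, GRCm38 chr10:89574020-89621253, minus strand) encodes VGLUT3, the form HCs use. Its normalized counts were 266, 287 and 316 in Control and 124, 132 and 133 in IDPN. The IDPN libraries lay within a narrow band, and the highest of them was below the lowest Control library by more than the spread within either group. The log2-Fold_Change was -1.16 ± 0.23 (SE, n = 3 per group), with a DESeq2 Padj of 3.01e-05 (edgeR 0.0106, limma-voom 0.0127). Slc17a6, encoding VGLUT2, had 9.70, 20.8 and 33.8 normalized counts in Control and 16.6, 19.1 and 10.3 in IDPN. These values overlapped, with a log2-Fold_Change of -0.50 ± 0.69 and a DESeq2 Padj of 0.804. Slc17a7, encoding VGLUT1, had no count in any library. Per kb of exon, Slc17a8 made up 91.4% to 96.9% of the vesicular transporter level in Control and 88.7% to 93.7% in IDPN.

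Several HC markers were lower in the same libraries, so Slc17a8 was also read against the HC marker list. Over all tested genes, 3.42% were called lower and 2.32% higher by DESeq2. Of the 14 HC markers 6 were downregulated (Otof, Pou4f3, Gfi1, Lhfpl5, Tmc1 and Myo15, with log2-Fold_Changes from -1.21 to -0.66), none was upregulated by DESeq2, edgeR or limma-voom or was higher at an unadjusted p under 0.05 (0 in each), and the list median was -0.69. Myo7a did not fall, with means of 799 normalized counts in Control and 808 in IDPN (log2-Fold_Change 0.01, DESeq2 Padj 0.987). Espn (-0.18, DESeq2 Padj 0.830) and Strc (-0.24, DESeq2 Padj 0.739) also overlapped between the groups. The other uncalled HC markers had estimates from -0.70 to -0.57. Tmc1 lost its call with edgeR and limma-voom (0.102 in each) and without Control 1, Control 3, IDPN 2 or IDPN 3, and with total-count scaling Otof, Lhfpl5 and Tmc1 lost theirs (DESeq2 Padj 0.196 to 0.394). The log2 ratio of Slc17a8 to the summed HC markers was -7.33, -7.32 and -7.10 in Control and -7.78, -7.78 and -7.72 in IDPN. Every IDPN ratio was thus below every Control ratio, with a mean difference of -0.51 (exact permutation test, two-sided, p = 0.10, the smallest value that 3 against 3 animals allow). The difference was again -0.51 when the mean of the markers' log2 values was used in place of their sum, over the same 14 markers. Gfi1 and Myo15 had estimates (-1.21 for each) close to that of Slc17a8 (-1.16), and the other listed markers had smaller decreases or none. The difference thus depends on the markers chosen, and other marker sets were not tested.

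AMPA receptors are tetramers of the subunits GluA1 to GluA4, and the subunits behaved unequally. Gria4 (ENSMUSG00000025892.16, chr9:4417896-4796234, minus strand), which encodes GluA4, a subunit of fast-gating receptors, was at 163, 141 and 188 normalized counts in Control and 33.9, 39.2 and 29.9 in IDPN. All IDPN libraries were far below the lowest Control library. Its log2-Fold_Change was -2.26 ± 0.32, with a DESeq2 Padj of 6.21e-10 (edgeR 0.00299, limma-voom 0.00461), a level 4.78-fold lower. Leaving out each library in turn gave log2-Fold_Changes from -2.36 to -2.14, all called.

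Gria3 (chrX:41400854-41678601, plus strand) encodes GluA3 and had the highest level per kb of any receptor gene in the set. Its normalized counts were 337, 356 and 332 in Control and 371, 291 and 434 in IDPN. The IDPN values spread to both sides of the Control ones, and the log2-Fold_Change of 0.10 had a 95% interval from -0.33 to 0.52 (DESeq2 Padj 0.894). Gria2, whose edited product makes AMPA receptors impermeable to calcium, was low, at 47.3, 56.6 and 38.3 normalized counts in Control and 43.0, 22.1 and 18.7 in IDPN. The highest IDPN library lay within the Control range, and the log2-Fold_Change was -0.75 ± 0.50 (DESeq2 Padj 0.480). Gria1, encoding GluA1, had a single count in 1 Control library.

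As a share of the summed AMPA level per kb, Gria4 held 40.9%, 36.0% and 45.1% in Control and 11.8%, 16.7% and 9.48% in IDPN. The share of Gria3 was 54.3%, 58.1% and 51.0% in Control and 82.2%, 79.5% and 88.1% in IDPN. Both shares separated the groups without overlap, while Gria2 stayed between 2.40% and 6.05% in all 6 libraries. The summed AMPA level itself was 63.7 ± 2.09 normalized counts per kb in Control and 44.3 ± 6.52 in IDPN (SD, n = 3). Gria4 alone was 26.0 ± 3.72 per kb in Control and 5.44 ± 0.739 in IDPN. Shares of 1 total are tied to each other, and no test was run on them.

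**Figure D2:**
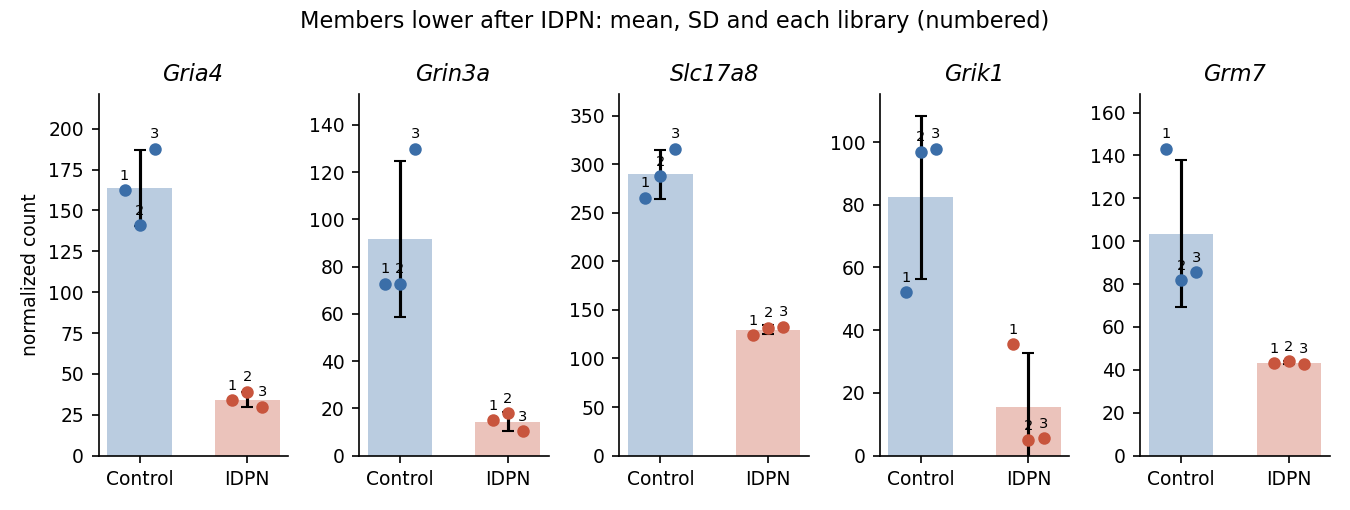
Normalized counts of the 5 downregulated members, with bars for the mean of 3 libraries, error bars for the SD and numbered points for the libraries. The IDPN libraries of Gria4 (29.9 to 39.2) and Slc17a8 (124 to 133) are tightly grouped, whereas Grik1 has 1 IDPN library at 35.6 and 2 near 5.

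Kainate receptors combine GluK1 to GluK3 with the high-affinity subunits GluK4 and GluK5. Grik1 (ENSMUSG00000022935.15, chr16:87895900-88290265, minus strand), which encodes GluK1, had 52.2, 97.0 and 97.9 normalized counts in Control and 35.6, 5.02 and 5.60 in IDPN. The libraries of each group disagreed: IDPN 1 approached Control 1, while IDPN 2 and IDPN 3 rested on 5 and 6 counts. The log2-Fold_Change was -2.40 ± 0.63 with a DESeq2 Padj of 0.00448, but edgeR gave 0.0996 and limma-voom 0.0523. The call was lost without Control 2 (DESeq2 Padj 0.102), without Control 3 (0.0559) and without IDPN 3 (0.0704), and without IDPN 1 the estimate was -3.95.

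Grik3, encoding GluK3, was at 26.7, 21.9 and 20.5 normalized counts in Control and 15.7, 11.0 and 13.1 in IDPN. Each IDPN library was below each Control library, but the values were small and the log2-Fold_Change of -0.79 ± 0.62 did not pass (DESeq2 Padj 0.592). Grik5, encoding GluK5, had 17.8 to 23.0 normalized counts in Control and 9.33 to 36.1 in IDPN, with a log2-Fold_Change of 0.31 ± 0.64 (DESeq2 Padj 0.885). Grik2 and Grik4 reached at most 10.4 and 10.8 normalized counts in any library and had no Padj. In Control, Grik1 was 49.1% to 66.9% of the kainate level per kb, and in IDPN it was 7.83% to 35.8%.

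NMDA receptors need the subunit GluN1 together with GluN2 or GluN3 subunits. Grin3a (ENSMUSG00000039579.15, chr4:49661611-49845744, minus strand) encodes GluN3A, which binds glycine and lowers the calcium permeability of the receptor. Its normalized counts were 72.8, 72.7 and 129.9 in Control and 14.9, 18.1 and 10.3 in IDPN. Control 3 stood above the other Control libraries, and all IDPN libraries were well below the lowest of them. The log2-Fold_Change was -2.68 ± 0.46 with a DESeq2 Padj of 9.05e-07 (edgeR 0.00932, limma-voom 0.0179), and the call held without each library in turn (-2.87 to -2.34).

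The other NMDA subunits were low and did not pass the test. Grin1, encoding the obligatory GluN1, had 19.4, 30.0 and 45.4 normalized counts in Control and 24.0, 20.1 and 18.7 in IDPN (log2-Fold_Change -0.60 ± 0.56, DESeq2 Padj 0.667). Grin2d, encoding GluN2D, had 2.43, 8.08 and 20.5 in Control and 21.5, 14.1 and 33.6 in IDPN, so the ranges overlapped (1.13 ± 0.80, DESeq2 Padj 0.517). Grin2c was at 2.43, 1.15 and 16.9 in Control and 15.7, 13.1 and 10.3 in IDPN (0.89 ± 1.01, DESeq2 Padj 0.748). Grin3b, encoding the second glycine-binding subunit, was uneven within both groups, with a library at 0 in each (-0.78 ± 1.48, DESeq2 Padj 0.873). Grin2b had at most 4 counts in any library and Grin2a none. Exons of Grin1, Grin2d and Grin3b overlap those of other genes over 13.5%, 9.66% and 32.1% of their length, and the library kit does not mark the strand. Grin3a made up 42.1% to 56.6% of the NMDA level per kb in Control and 7.05% to 17.8% in IDPN. Grid1, which encodes the delta receptor GluD1, a synapse organizer, had 4 to 8 counts in each Control library, 17 in IDPN 1 and 0 in the other 2 IDPN libraries, and its log2-Fold_Change of -0.42 (95% interval -3.35 to 2.52) did not pass (DESeq2 Padj 0.939).

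**Figure D3:**
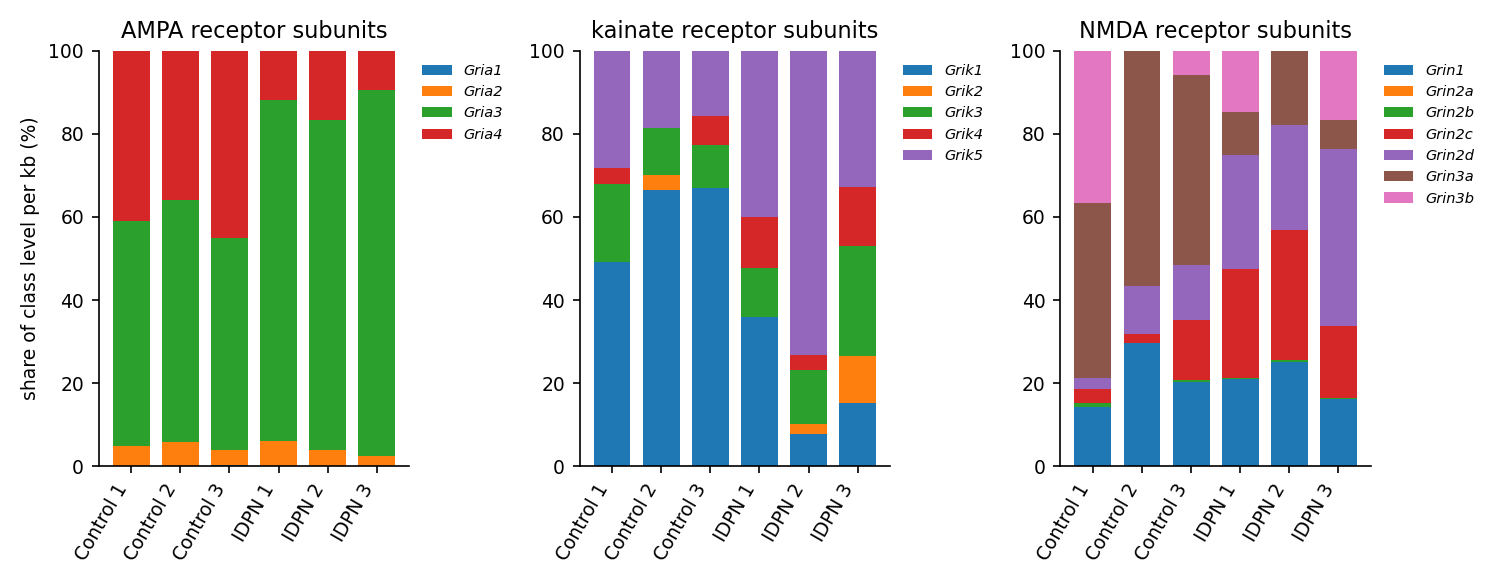
Share of each subunit in the summed level per kb of exon of its receptor class (percent), as 1 stacked bar per library. The red Gria4 segment shrinks from 36.0% to 45.1% in Control to 9.48% to 16.7% in IDPN, and the Grik1 and Grin3a segments are also smaller in the IDPN bars.

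Metabotropic receptors were represented by 4 measurable genes. Grm7 (ENSMUSG00000056755.13, chr6:110645581-111567230, plus strand), encoding the presynaptic group III receptor mGluR7, had 143, 82.0 and 85.4 normalized counts in Control and 43.0, 44.2 and 42.9 in IDPN. The IDPN libraries were nearly equal and lay below all Control libraries, of which Control 1 stood apart on the high side. The log2-Fold_Change was -1.25 ± 0.37 with a DESeq2 Padj of 0.0170, but edgeR gave 0.0747, limma-voom 0.0924 and scaling by library totals 0.142. Without Control 1 the estimate was -0.95 (DESeq2 Padj 0.241), and the call was also lost without IDPN 1 (0.0834), IDPN 2 (0.0622) or IDPN 3 (0.0786).

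Grm2 and Grm3 encode the group II receptors, and Grm4 another of group III. Grm2 had 19.4 to 28.9 normalized counts in Control and 18.1 to 35.5 in IDPN (log2-Fold_Change 0.13 ± 0.57, DESeq2 Padj 0.952). Grm3 had 11.6 to 24.3 and 7.03 to 13.2 (-0.77 ± 0.75, DESeq2 Padj 0.691). Grm4 varied most among libraries, from 3.46 to 28.5 in Control and 8.03 to 29.0 in IDPN (0.30 ± 0.91, DESeq2 Padj 0.927). The groups overlapped for these 3 genes, and Grm5, Grm6 and Grm8 had no counts.

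The plasma membrane transporters clear glutamate after release, and they were led by Slc1a3 (ENSMUSG00000005360.14, chr15:8634124-8710764, minus strand), encoding GLAST of supporting cells. Its normalized counts were 70765, 60282 and 54376 in Control and 48692, 49999.6 and 42386 in IDPN. In Control it ranked 256 by level per kb among 23502 genes above 0, and it held 97.9% to 98.8% of the transporter level per kb in every library. The IDPN libraries were all below the Control ones, but the gap between the nearest of them was smaller than the SD of the Control group (8300.4). The log2-Fold_Change was -0.39 ± 0.16, with a 95% interval from -0.71 to -0.08 and a DESeq2 Padj of 0.135, so it did not pass.

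Supporting cell markers moved too, with 2 of 10 called lower (Sparcl1 and Gjb6), against 3.42% of all tested genes, and a list median of -0.40. The edgeR and limma-voom fits called 0 of them lower, and Sparcl1 was also lost with total-count scaling (DESeq2 Padj 0.365). By all 3 tools none was called higher, and 0 were higher at an unadjusted p under 0.05 in each tool. The log2 ratio of Slc1a3 to the summed supporting cell markers was higher in IDPN by 0.26 (exact permutation test, two-sided, p = 0.10, the smallest 3 against 3 allow). With the mean of the markers' log2 values the difference was -0.04 (exact p = 0.70), so the sign of this ratio depended on how the markers were summed.

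Slc1a2, encoding GLT-1, the main astrocyte transporter, was the second in level, with 1060.0, 1080.3 and 1422 normalized counts in Control and 1061, 824 and 998 in IDPN (log2-Fold_Change -0.31 ± 0.19, DESeq2 Padj 0.441). Slc1a1, encoding EAAC1, was at 67.9, 117 and 163 in Control and 115, 132 and 68.1 in IDPN, with full overlap (-0.15 ± 0.38, DESeq2 Padj 0.912), and scaling by library totals turned its sign (0.04). An antisense gene, 4430402I18Rik, overlaps 31.9% of its exonic length and could not be separated from it without strand. Slc1a6, encoding EAAT4, had 21.8, 13.9 and 19.6 in Control and 11.6, 11.0 and 9.33 in IDPN, with no overlap but few counts (-0.79 ± 0.69, DESeq2 Padj 0.644). Slc1a7, encoding EAAT5, had at most 1 count per library.

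**Figure D4:**
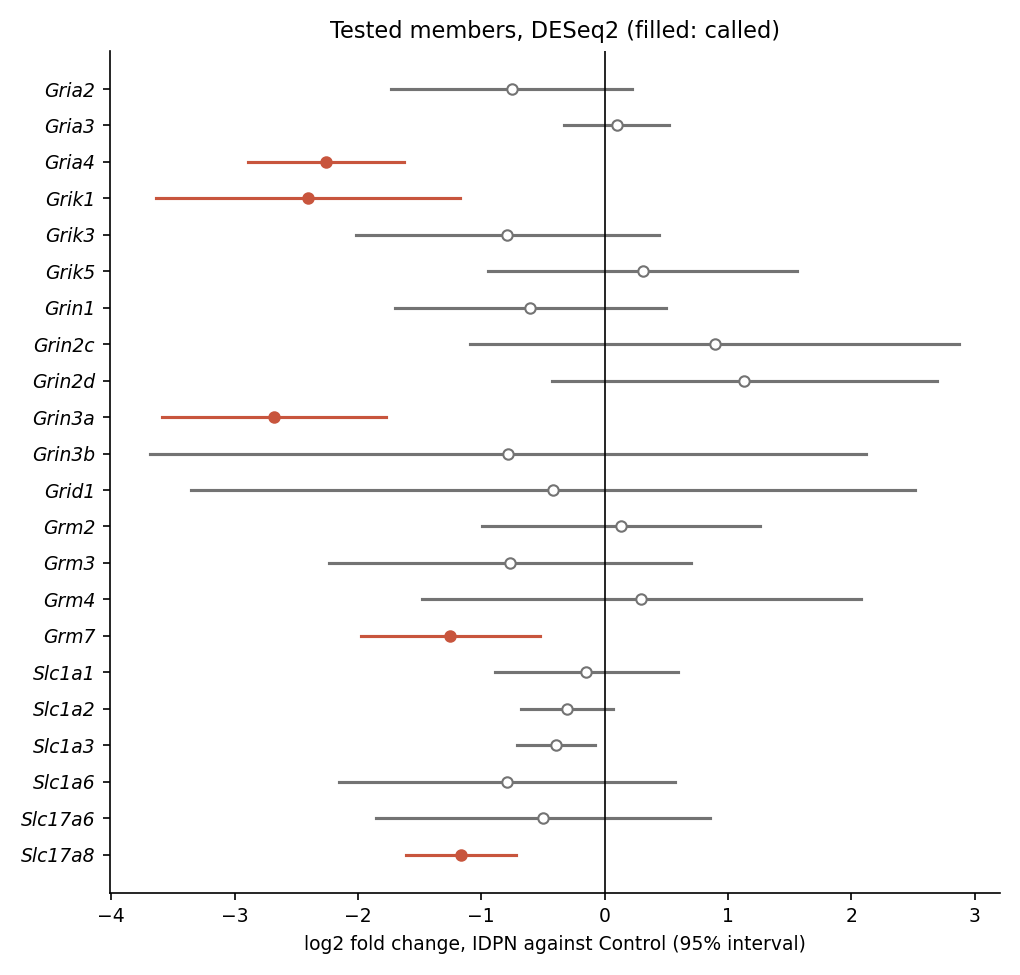
Estimated log2 fold change of IDPN against Control with its 95% interval (DESeq2) for the 22 tested members, filled where called. The intervals of the 5 called members lie wholly below 0, and so does that of the uncalled Slc1a3 (-0.71 to -0.08). The other 16 intervals span 0.

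Neuronal markers were described beside the receptors, because nerve terminals hold many of these receptors. Which cells of the tissue the marker RNA came from was not tested, and the paper speculates that HCs express Ntrk3. Of 14 neuronal markers 11 were tested and 5 were called lower: Nefl, Nefm, Snap25 and the neurotrophin receptors Ntrk2 and Ntrk3. By comparison, 3.42% of all tested genes were called lower and 2.32% higher by DESeq2. Ntrk3 went from 295 ± 34.6 to 65.3 ± 26.2 normalized counts (log2-Fold_Change -2.17, DESeq2 Padj 1.17e-09). With total-count scaling Ntrk3 kept its call and the other 4 lost theirs (DESeq2 Padj 0.118 to 0.377), and Nefm was also lost with edgeR (0.0719) and limma-voom (0.0574). Nefl also lost its call without Control 1, IDPN 1 or IDPN 2, and Nefm without Control 1, Control 2, IDPN 1 or IDPN 3. Snap25, Ntrk2 and Ntrk3 kept theirs without each library in turn. Exons of Nefl and Nefm overlap each other on opposite strands, over 32.8% and 19.2% of their length, and could not be separated without strand. None was called higher by any of the 3 tools, and 1 was higher at an unadjusted p under 0.05. The summed neuronal markers were 7797 to 7980 in Control and 4838 to 5033 in IDPN. Tubb3, Stmn2 and Nefh were low in both groups, with Scn1a and Gap43 at or near 0. Of the type I HC markers 2 of 3 were called lower (Kcna10 and Ocm), and of the type II HC markers 1 of 3 (Calb2, lost with total-count scaling, DESeq2 Padj 0.102). The uncalled type I marker, Spp1, had a log2-Fold_Change of -0.53 (DESeq2 Padj 0.0502). Schwann cell markers gave 1 call of 9, with Sox10 higher (0.80, DESeq2 Padj 0.00108). The 8 macrophage markers, the 7 stromal markers and the 5 dark and transitional cell markers gave 0 calls by DESeq2, with medians of 0.53, 0.32 and -0.44. At an unadjusted p under 0.05, 3, 2 and 2 of them differed in DESeq2, and edgeR and limma-voom also called 0. The 2 most abundant genes of each were C1qb and Csf1r, Dcn and Otor, and Atp1b2 and Slc12a2. The part of these cell types in the receptor differences was not tested.

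The partners of the receptors were read from 5 lists. Across these lists of other glutamate synapse genes, with 64 genes in all, 55 were tested, 5 were called lower and 1 higher, with a median of -0.08. Over all tested genes, 3.42% were called lower and 2.32% higher. With edgeR 2 were called lower and with limma-voom 1, scaffold genes in each case, and with library totals as the scale 0. The shares of all tested genes called lower in those settings were 2.19%, 2.16% and 1.28%. The auxiliary subunits of AMPA receptors, which set their traffic and gating, gave 1 call of 12 tested. Shisa8, which encodes such a subunit, rose from 119 ± 16.6 to 207 ± 25.0 normalized counts (log2-Fold_Change 0.80 ± 0.26, DESeq2 Padj 0.0389). That call was lost with edgeR (0.0917), with limma-voom (0.0957), without independent filtering (0.0562) and without any 1 of the 6 libraries (DESeq2 Padj 0.0506 to 0.203). None of the 12 was called lower by DESeq2, edgeR or limma-voom, though 2 were lower at an unadjusted p under 0.05 in DESeq2, and the median was -0.44. Neto2, an auxiliary subunit of kainate receptors, fell from 195 ± 75.3 to 97.0 ± 3.22 (-1.01 ± 0.33, DESeq2 Padj 0.0370), while Neto1 had no counts. The Neto2 call was lost with edgeR (0.124), limma-voom (0.179), total-count scaling (0.238) and on leaving out any single library other than Control 2 (DESeq2 Padj 0.110 to 0.219).

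Of 16 tested postsynaptic scaffold genes 3 were called lower, against 3.42% of all tested genes. Dlg2, encoding PSD-93, was at 359.5 ± 75.4 and 189 ± 65.3 normalized counts (log2-Fold_Change -0.92 ± 0.28, DESeq2 Padj 0.0229). Dlgap1, encoding a protein that binds PSD-95, was at 515 ± 61.0 and 259 ± 68.0 (-0.99 ± 0.24, DESeq2 Padj 0.00110), and Shank2 at 441 ± 48.5 and 259 ± 32.3 (-0.77 ± 0.21, DESeq2 Padj 0.00770). Dlg2 lost its call with edgeR (0.108), limma-voom (0.0986) and without Control 1, Control 3, IDPN 2 or IDPN 3 (DESeq2 Padj 0.0980 to 0.150), Shank2 with limma-voom (0.0510) and without IDPN 2 (0.0603), and all 3 with total-count scaling (0.167 to 0.310). The median of the scaffold genes was 0.10, and these 3 stood against 13 others that did not pass. The 12 genes of glutamate metabolism gave 0 calls by DESeq2, edgeR or limma-voom, with 1 at an unadjusted p under 0.05, and their most abundant genes, Got2 and Glul, had log2-Fold_Changes of -0.16 and 0.07. Of 14 glutamine and related transporters, Slc38a3, a glutamine transporter, was called lower (1113 ± 62.2 to 709 ± 155, -0.65 ± 0.20, DESeq2 Padj 0.0231), a call lost with edgeR (0.0763), limma-voom (0.0699), total-count scaling (0.394) and without Control 1, Control 2 or IDPN 3.

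**Figure D5:**
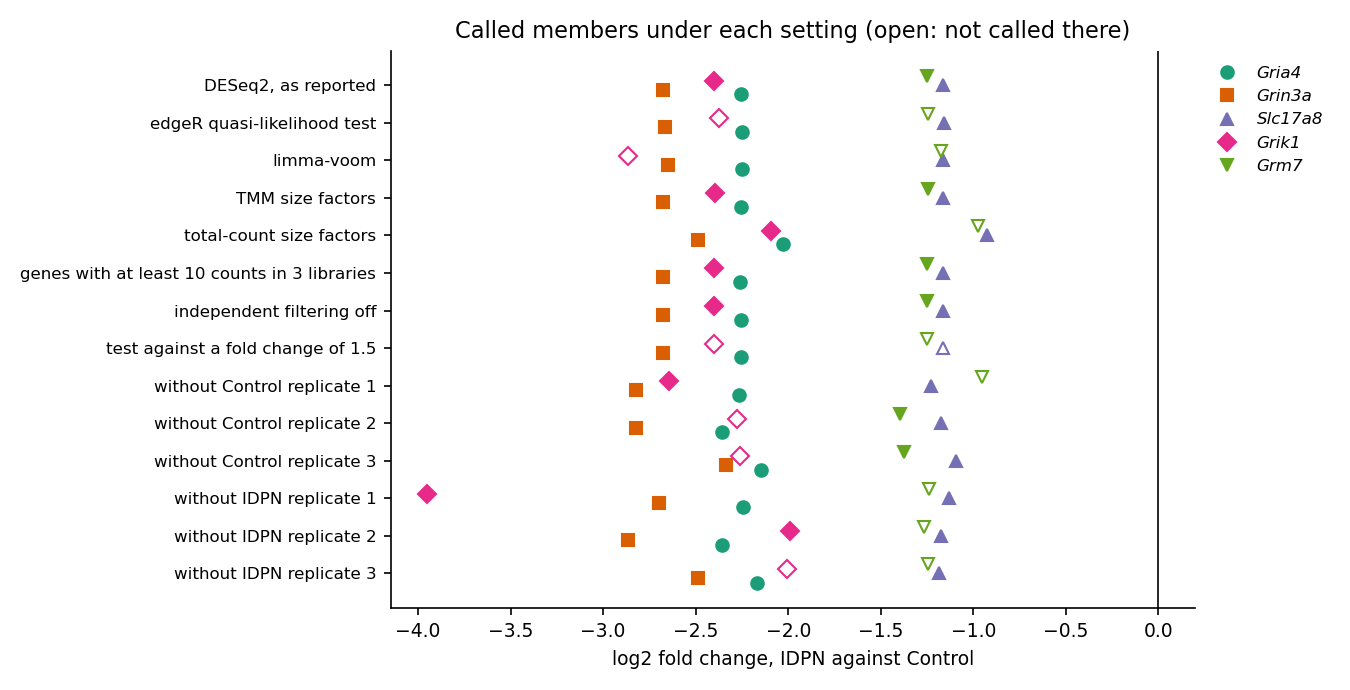
Log2 fold change of the 5 downregulated members under each setting, filled where the call held and open where it did not. Gria4 and Grin3a are filled in every setting, Slc17a8 in all but the test against a fold change of 1.5, and Grik1 and Grm7 are open in 6 and 8 settings.

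The 5 calls were of unequal strength across settings. Gria4 and Grin3a were called in all 13 alternatives run. Slc17a8 was called in 12, the exception being the test against a fold change of 1.5 (DESeq2 Padj 0.688), in which 0.582% of all tested genes were called lower. Grik1 was called in 7 and Grm7 in 5, and in each alternative in which either was not called the estimate stayed below 0. With edgeR and with limma-voom the count of called members was 3 (Gria4, Grin3a and Slc17a8) rather than 5, against 2.19% and 2.16% of all tested genes called lower.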

How the data were processed

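RNA was converted to cDNA by a modified SMART-seq2 protocol, which does not mark strand or molecules, so the limits given for counts of 0 cover counting error only. The SEs and 95% intervals are those of the fit over animals. The deposited table held expected counts per gene, rounded to whole numbers, that the authors estimated with RSEM 2.3.0 after STAR 2.5.3a alignment to GRCm38 (submitters' processing notes). RSEM divides reads that fit several genes. All 52636 genes were fitted with DESeq2 1.42.0 (R 4.3.3, Wald test, Padj under 0.05, fold change over 1.5). Alternatives were edgeR 4.0.16 quasi-likelihood, limma 3.58.1 voom, TMM or total-count scaling, a filter of 10 counts in 3 libraries, no independent filtering, a test against the fold threshold, and omission of each library. Methods were also run on simulated data, with planted changes larger than those of Slc17a8 and Grm7 and none in the genes of lowest count. These runs therefore do not cover smaller changes or such low counts. Exonic lengths came from a GENCODE annotation of the same build (52403 genes). Dlg2 names several entries, of which the protein-coding one was used. Marker means used a pseudocount of 1. All 32 members are named. From each other list, the called genes are named, or else the most abundant pair. The members and lists were chosen with earlier results of these data known.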

Additional observations from a re-analysis of the deposited data

How the results depend on the processing

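The count of downregulated members was 5 with DESeq2, 3 with edgeR and with limma-voom, 2 in the test against a fold change of 1.5, and 3 to 4 when 1 library was left out. For the other glutamate synapse genes, the 5 lower became 2 with edgeR, 1 with limma-voom, 0 with total-count scaling, 0 in the test against a fold change of 1.5, and 2 to 4 with 1 library left out. The 1 higher became 0 with edgeR, limma-voom, no independent filtering and the fold change test, 2 with total-count scaling, and 0 to 1 with 1 library left out, the 1 being Homer2 without Control 3 and not Shisa8. The difference in the Slc17a8 to HC marker ratio ran from -0.55 to -0.44 with 1 library left out. That of the Slc1a3 to supporting cell marker ratio ran from 0.18 to 0.31, and was -0.039 with mean log2 markers. Slc1a1 was 0.041 with total-count scaling, where Csf1r was 0.25 and Got2 0.11, and Csf1r was 0.0031 with limma-voom. The cause of these changes was not tested.

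With 1 library left out, the estimates of some members changed sign: Gria3 ran from -0.045 to 0.24, Grik5 from -0.030 to 0.70, Grin3b from -1.37 to 0.86, Grid1 from -5.15 to 0.16, Grm2 from -0.21 to 0.32, Grm4 from -0.48 to 1.74, Slc1a1 from -0.42 to 0.18 and Slc17a6 from -0.85 to 0.0030. Of the named list genes, C1qb ran from -0.23 to 0.28, Csf1r from -0.12 to 0.068 and Glul from -0.12 to 0.31. Over 280 alternative values of the 22 tested members, 252 kept direction and side of the threshold, 15 lost the call and 13 changed sign. No paired analysis was run, because the Control and IDPN libraries came from separate animals and the labels give no pairs. Low counts left wide intervals for Grin3b (-3.68 to 2.12) and Grid1 (-3.35 to 2.52).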
